A study of Dugesia japonica with 12 samples.

Results

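Whole planarians sampled after 3 days in glyphosate were compared with whole planarians sampled after 1 day in the same exposure, to describe how the transcriptome differs between an earlier and a later time of exposure. The comparison rests on 6 of the 12 libraries of the study, 3 from day 1 and 3 from day 3, taken by the treatment times in the labels. The animals were Dugesia japonica of the clonal laboratory strain Dj-NH, kept by asexual reproduction, and both groups received glyphosate at 64 mg per L. Individuals were sampled at random at each time, and polyadenylated RNA was sequenced from the whole worm. Unexposed control worms and worms after 5 days of exposure, with 3 libraries each, enter the difference between day 3 and day 1 only through the shared estimate of the spread and the filter on low values, and their levels are given as context. The labels do not state whether replicate libraries derive from independent cultures. The p-values below therefore reflect variation among these libraries alone, and it may be technical. How many animals went into a library is not given in the sources used here.

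Planarians are free-living flatworms that replace all their tissues from a population of dividing stem cells called neoblasts. Glyphosate is a herbicide that blocks the enzyme EPSP synthase of the shikimate pathway, by which plants, fungi and many bacteria make aromatic amino acids and which animals lack. Cells under chemical stress are known to raise chaperones, metal-binding and glutathione-dependent proteins, and to change respiration, protein synthesis and the cell cycle. In RNA from whole worms, fewer cells of a type and less RNA per cell cannot be told apart.

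Levels are TPM values, transcript abundances divided by transcript length and scaled to a fixed total per library. Sequencing depth is therefore unknown, and a transcript that takes a larger share lowers the values of the others. Differences are log2 fold changes of TPM + 1, day 3 minus day 1, and they understate the change of low genes. A gene is called changed at an adjusted p under 0.05 in a limma fit over all 27329 tested genes. Genes are assembled transcripts without genome coordinates, named here by the assembly identifier and the best annotation hit. Classes of best hit (flatworm, bovid, ciliate, plant, other, none) describe similarity and do not identify the organism that made the RNA. Across the 12 libraries, 18888 to 23602 genes reached 1 TPM. Day 3 replicate 2 stood apart from the other libraries of these days, with the highest median of the tested genes (2.99 TPM against 1.81 to 2.75) and correlations over genes of 0.885 to 0.918 with the other 5, against 0.920 to 0.942 among those. Counts and values that rest on this library are therefore also given without it. DjPiwiA, a marker of neoblasts, was present in all 6 libraries at 69.8 to 137 TPM.

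Between day 1 and day 3, 49 of the 27329 tested genes changed (0.179%), of which 12 rose (0.0439%) and 37 fell (0.135%). In all 49 the 3 values of day 3 lay outside the range of the 3 values of day 1, and the smallest change among them was 1.14 on the log2 scale. Such separation adds no support to these calls, which were made from the same values. Separation of 3 against 3 libraries by itself gives an exact two-sided permutation p of 0.1. The share of all tested genes whose days do not overlap is not given here. Only 17 of the 49 had a hit that names a protein. Without day 3 replicate 2, 40 genes were called, 7 higher and 33 lower, and 36 of these were among the 49. Without day 3 replicate 1, 78 were called, 18 higher and 60 lower. At an unadjusted p under 0.05, 2366 genes differed (8.66%), 741 of them higher (2.71%) and 1625 lower (5.95%) at day 3. The median log2 fold change of all tested genes was 0.02 as deposited. It was 0.15 when TPM was rescaled with the 2 most abundant transcripts removed, and -0.13 without day 3 replicate 2. Medians of gene lists are therefore given below relative to the median of all tested genes. All tested genes include 15428 without a hit, whose median was -0.05, against 0.08 for flatworm-hit genes and 0.08 for genes with another hit. Lists hold genes with a hit, so this baseline lies below the medians of these classes. Counts of list members at an unadjusted p under 0.05 are to be read beside the shares of all genes, 2.71% higher and 5.95% lower.

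By class of best hit, the 12 rises comprised 6 transcripts without a hit, 4 with a plant hit and 2 with another hit. The 37 falls comprised 24 without a hit, 5 with a ciliate hit, 5 with another hit and 3 with a flatworm hit. Among the 4159 tested genes with a flatworm hit, 0 rose and 3 fell (0.0721%) by limma's adjusted p, while 243 differed at an unadjusted p under 0.05 (5.84%), 75 of them higher (1.8%) and 168 lower (4.04%). A fit of the flatworm-hit genes alone called 1 higher and 3 lower. The called genes were short: 39 of 49, or 79.6%, were under 500 bases, against 50.7% of all tested genes.

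A short transcript without any hit, TRINITY_DN36963_c0_g5 (231 bases), held 3.56, 7.10 and 3.79% of the summed TPM in the libraries of day 1 and 17.6, 30.2 and 19.9% in those of day 3. Every library of day 3 lay above every library of day 1, and the difference was 17.7 percentage points (exact two-sided permutation test, p = 0.1, the smallest that 3 against 3 can give; adjusted p = 0.32 over 8 shares). The most abundant transcript, TRINITY_DN37864_c2_g1 (266 bases, no hit), held 37.6, 34.4 and 45.8% at day 1 and 30.3, 19.7 and 35.6% at day 3, and these ranges overlapped (exact permutation test, p = 0.2). At day 5 the former held 21.1 ± 3.59% and the latter 30.5 ± 1.88% (SD, n = 3 libraries). Transcripts with a bovid hit held 3.03 ± 0.389% at day 1 and 1.77 ± 1.23% at day 3, where day 3 replicate 2 was lowest at 0.538% (exact permutation test, p = 0.2, n = 3 libraries each). All TPM values share these totals, so a shift of this size in a single transcript bears on every other level.

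**Figure D1:**
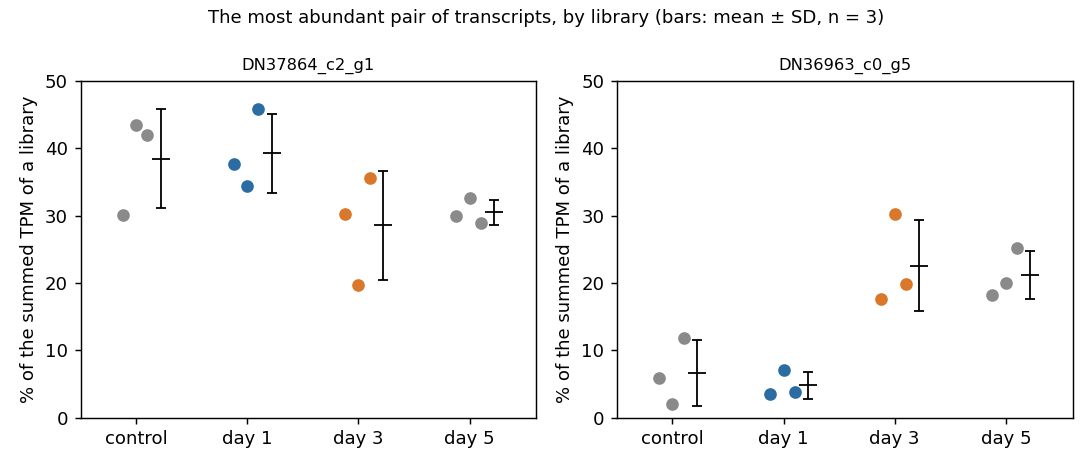
Share of the summed TPM, in percent, held by the most abundant pair of transcripts in each of the 12 libraries, with points for libraries and bars for mean ± SD (n = 3). The points of TRINITY_DN36963_c0_g5 at day 3 lie between 17.6 and 30.2%, all above those of day 1, while those of TRINITY_DN37864_c2_g1 overlap between the days.

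The largest rise was that of a transcript without a hit. TRINITY_DN31423_c0_g2 (212 bases) was listed at 0, 1.27 and 0 TPM at day 1 and at 37.9, 91.6 and 53.1 TPM at day 3, and was listed at 0 in all 3 control libraries. All libraries of day 3 were high and all of day 1 at or near 0 (log2 fold change 5.46, SE 0.40, limma adjusted p = 1.08e-05), and at day 5 its values were 48.1, 32.1 and 16.6 TPM.

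A ubiquitin-activating enzyme fragment rose as well. E1 enzymes activate ubiquitin for its attachment to proteins, and this transcript, TRINITY_DN34907_c1_g2, is a fragment of 234 bases whose best hits are an insect and a fission yeast E1. Its values were 9.22, 6.42 and 6.18 TPM at day 1 and 55.7, 80.8 and 73.9 TPM at day 3, with no overlap between the days. The log2 fold change was 3.11 (SE 0.29, limma adjusted p = 6.25e-05), and at day 5 the level was 64.9 ± 5.95 TPM (SD, n = 3). It was the 1 member called among 283 tested genes of the ubiquitin list, of which 9 were higher and 7 lower at an unadjusted p under 0.05.

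Transcripts similar to plant stress proteins formed the largest group of named rises. Metallothioneins bind metal ions through cysteines. The metallothionein-like transcript TRINITY_DN23386_c0_g2, whose Swiss-Prot hit is a papaya protein, was at 0.37, 0.73 and 0.44 TPM at day 1 and at 9.06, 12.0 and 13.6 TPM at day 3. Its groups were far apart, and the log2 fold change was 3.04 (SE 0.24, limma adjusted p = 1.42e-05). A further metallothionein-like transcript with the same hit, TRINITY_DN23911_c0_g1, went from 2.84, 3.65 and 2.04 TPM to 11.1, 15.4 and 16.2 TPM, again without overlap (log2 fold change 1.99, SE 0.24, limma adjusted p = 0.000757). Glutathione S-transferases join glutathione to reactive compounds. The transcript similar to parC of plants and to Arabidopsis U17, TRINITY_DN9457_c0_g1, was at 0.04, 0.06 and 0.05 TPM at day 1 and at 4.51, 4.13 and 5.50 TPM at day 3 (log2 fold change 2.44, SE 0.26, limma adjusted p = 0.000200). A 12-oxophytodienoate reductase, an enzyme of jasmonate metabolism in plants, rose from 0.43, 0.36 and 0.32 TPM to 2.48, 2.79 and 3.45 TPM in TRINITY_DN34618_c0_g4 (log2 fold change 1.505, SE 0.27, limma adjusted p = 0.0290). This last call was lost on leaving out any library of day 1, day 3 or day 5, with adjusted p between 0.0505 and 0.185.

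Other plant-hit transcripts moved in part with these rises and in part not. Of 659 tested genes with a plant hit, 4 rose, 0 fell by limma's adjusted p and the median log2 fold change was 0.01. At an unadjusted p under 0.05, 47 were higher and 23 lower, while over all tested genes 2.71% were higher and 5.95% lower. Metallothionein-like TRINITY_DN32401_c1_g3 (log2 fold change 1.10, limma adjusted p = 0.0959) and TRINITY_DN32401_c2_g1 (0.96, limma adjusted p = 0.238) were higher at day 3 without overlap, but were not called. Transcripts similar to seed storage proteins and oleosins, which are typical of seeds and whose names are listed here as markers of plant RNA, gave 0 calls among 13 tested, 0 higher and 2 lower at an unadjusted p under 0.05, with a median of 0.07. Their summed level ran from 111 to 141 TPM over the libraries of day 1 and from 108 to 128 TPM over those of day 3. The called metallothionein-like TRINITY_DN23386_c0_g2, the glutathione S-transferase and the 12-oxophytodienoate reductase were all at or below 0.73 TPM in every library of control and day 1. The part of plant material in the plant-hit rises was not tested.

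The last named rise was a fragment of 205 bases similar to human aspartyl-tRNA synthetase, the enzyme that loads aspartate onto its tRNA. TRINITY_DN37533_c0_g3 was at 5.03, 18.4 and 7.44 TPM at day 1 and at 33.6, 70.7 and 36.7 TPM at day 3, where replicate 2 was the highest of its group on both days (log2 fold change 2.19, SE 0.41, limma adjusted p = 0.0403). The call was lost without day 3 replicate 2 (log2 fold change 1.86, adjusted p = 0.215). It was also lost without control replicate 1, day 1 replicate 1 or 3, day 3 replicate 3 or day 5 replicate 1 (adjusted p between 0.0523 and 0.208). It was the 1 call among 141 tested translation factors and aminoacyl-tRNA synthetases.

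Of the rises without a hit, TRINITY_DN36225_c1_g3 went from 0.82, 0.86 and 1.75 TPM to 9.74, 15.2 and 3.87 TPM (log2 fold change 2.17, SE 0.36, limma adjusted p = 0.0138), with an adjusted p between 0.0504 and 0.0878 when day 1 replicate 1 or 2 or day 3 replicate 1 or 2 was left out. TRINITY_DN33764_c5_g9 went from 2.45, 3.40 and 3.00 TPM to 8.85, 9.95 and 10.9 TPM (log2 fold change 1.47, SE 0.23, limma adjusted p = 0.00766), and leaving out day 1 replicate 1 or day 3 replicate 3 raised its adjusted p to 0.0741 or 0.0591. Among the rises, TRINITY_DN38383_c0_g1 was singled out after its values were seen because its level at day 5 was back near that of day 1. It was at 0.48, 0.99 and 0.00 TPM at day 1, at 4.87, 8.36 and 5.19 TPM at day 3 and at 0.00, 0.24 and 1.21 TPM at day 5 (log2 fold change from day 1 to day 3 2.28, SE 0.36, limma adjusted p = 0.00791; 0.0782 without day 3 replicate 2 and 0.0575 without day 1 replicate 3).

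**Figure D2:**
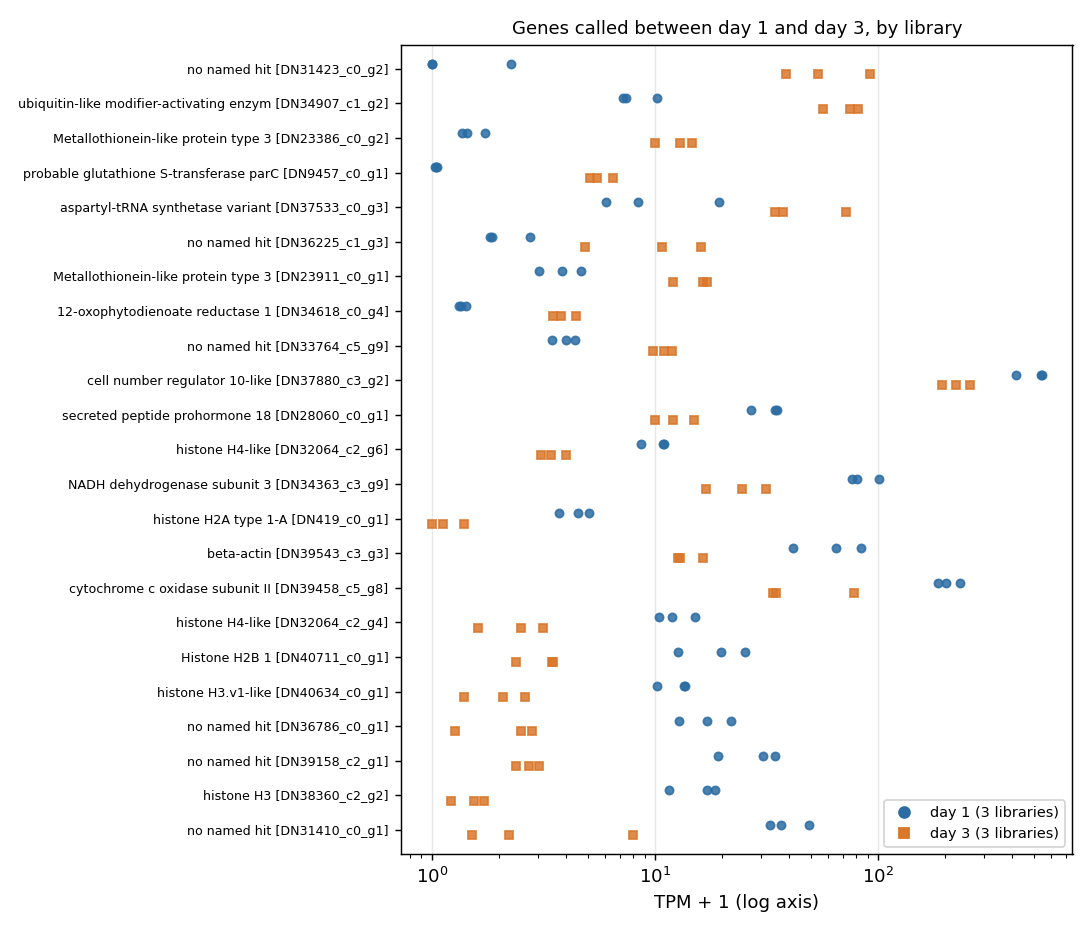
TPM + 1 on a log axis for the called genes that have a named hit and for the 3 largest rises and 3 largest falls without one, with 3 circles for the libraries of day 1 and 3 squares for those of day 3. In each row the circles and squares occupy separate ranges, widest apart for TRINITY_DN31423_c0_g2 at the top.

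Histone transcripts, which encode the proteins that package DNA and are made mainly in dividing cells, held the largest share of the named falls, and these had best hits outside flatworms. Of 44 histones tested, 0 rose and 6 fell, and 23 were lower and 0 higher at an unadjusted p under 0.05. Over all tested genes 0.135% fell, and 5.95% were lower and 2.71% higher at an unadjusted p under 0.05. The list median was -0.52 relative to all genes, and between -0.63 and -0.33 when each of the 6 libraries was left out. The 6 that fell were 5 of the 10 with a ciliate hit in Swiss-Prot, all from Tetrahymena, and 1 with a hit in a bird.

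The histone H3 transcript TRINITY_DN38360_c2_g2 was at 17.6, 16.2 and 10.6 TPM at day 1 and at 0.22, 0.72 and 0.54 TPM at day 3. No library of day 3 reached 1 TPM, and the log2 fold change was -3.39 (SE 0.31, limma adjusted p = 5.86e-05). The H3.v1-like transcript TRINITY_DN40634_c0_g1 was at 12.6, 12.5 and 9.25 TPM and then at 0.39, 1.62 and 1.09 TPM (log2 fold change -2.65, SE 0.27, limma adjusted p = 0.000164). Histone H2B in TRINITY_DN40711_c0_g1 went from 18.8, 24.4 and 11.7 TPM to 1.38, 2.49 and 2.47 TPM, with all of day 3 below all of day 1 (log2 fold change -2.60, SE 0.37, limma adjusted p = 0.00368). Histone H4 was represented by a pair of transcripts of 1 assembly cluster, between which reads may be split. TRINITY_DN32064_c2_g4 went from 14.1, 10.9 and 9.43 TPM to 0.61, 2.14 and 1.52 TPM (log2 fold change -2.40, SE 0.27, limma adjusted p = 0.000409). TRINITY_DN32064_c2_g6 went from 9.90, 9.96 and 7.67 TPM to 2.09, 2.44 and 2.99 TPM (log2 fold change -1.54, SE 0.28, limma adjusted p = 0.0357), a call lost on leaving out any of the 6 libraries, control replicate 3 or day 5 replicate 2, with adjusted p between 0.0514 and 0.178. Histone H2A in TRINITY_DN419_c0_g1 fell from 2.72, 4.07 and 3.54 TPM to 0.12, 0.40 and 0.00 TPM (log2 fold change -1.92, SE 0.28, limma adjusted p = 0.00415). The low levels persisted at day 5, where the summed level of the 10 ciliate-hit histones was 21.0 ± 2.85 TPM against 18.4 ± 3.99 TPM at day 3, 86.2 ± 20.8 TPM at day 1 and 148 ± 9.42 TPM in control (SD, n = 3 each).

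Histones with a flatworm hit differed less between the days than those with a ciliate hit, whose median log2 fold change was -1.50. Of 13 tested, 0 were called, and 3 were lower and 0 higher at an unadjusted p under 0.05. Over all flatworm-hit genes, 4.04% were lower and 1.8% higher. The median log2 fold change of the 13 was -0.35, with a range from -0.58 to 0.43. Relative to all flatworm-hit genes their median was -0.43. The H2A.1 transcript TRINITY_DN37185_c1_g5 was at 514, 491 and 466 TPM at day 1 and at 349, 357 and 348 TPM at day 3, and these did not overlap although the change did not pass the test (log2 fold change -0.48, SE 0.17, limma adjusted p = 0.405). Of 16 histones with another hit, 1 was called lower. With this one, 9 of the 16 were lower at an unadjusted p under 0.05, and their median was -0.48. Among ciliate-hit genes other than histones, 0 of 62 were called by limma, and the median was -0.24. At an unadjusted p under 0.05, 11 of these 62 were lower and 0 higher, against 5.95% lower and 2.71% higher over all tested genes. The summed level of these 62 was 815, 763 and 551 TPM at day 1 and 382, 1011 and 644 TPM at day 3. Day 3 replicate 2 was thus their highest of the 6 libraries. For the ciliate-hit histones it was the highest of day 3 only, at 21.5 TPM against 13.9 and 19.7 TPM. In both sets day 3 replicate 1 was the lowest library. The part of ciliate cells in the fall of these histones was not tested. Centrin-2 with a ciliate hit (TRINITY_DN16790_c0_g1), a protein of basal bodies, was at 24.0, 26.5 and 14.7 TPM at day 1 and at 1.28, 22.4 and 4.08 TPM at day 3, where replicate 2 overlapped day 1 (log2 fold change -1.77, SE 0.56, limma adjusted p = 0.329). Without day 3 replicate 2 its log2 fold change was -2.70 (adjusted p = 0.00795), and without day 3 replicate 1 it was -1.02.

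**Figure D3:**
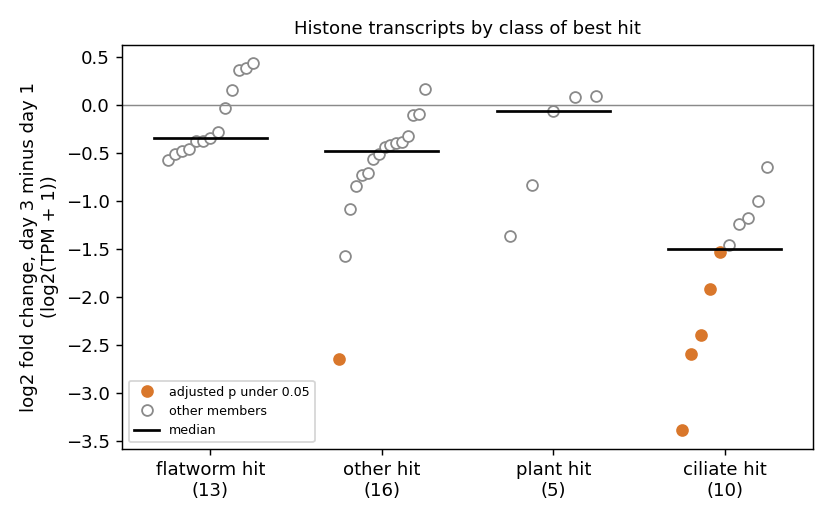
Log2 fold change (TPM + 1), day 3 minus day 1, of each tested histone transcript by class of best hit, with the number of transcripts in brackets, filled points for adjusted p under 0.05 and a line at the median. The 10 ciliate-hit transcripts lie between -3.39 and -0.65 and hold 5 of the 6 filled points, and the 13 flatworm-hit transcripts lie between -0.58 and 0.43.

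Of 40 tested transcripts of subunits encoded by mitochondrial DNA, the core of the respiratory chain, 2 fell and 0 rose, and 20 were lower and 0 higher at an unadjusted p under 0.05. The lower values lay mostly in the flatworm-hit and bovid-hit sets. Of 10 tested with a flatworm hit, 2 fell and the other 8 were lower at an unadjusted p under 0.05, against 4.04% of flatworm-hit genes. Their log2 fold changes ran from -2.19 to -0.74 with a median of -1.11, and in 5 of the 10 the days did not overlap. Cytochrome c oxidase subunit II (TRINITY_DN39458_c5_g8), a subunit of the last complex of the chain, was at 185, 202 and 232 TPM at day 1 and at 77.5, 34.0 and 32.8 TPM at day 3. All libraries of day 3 were lower, and the log2 fold change was -2.19 (SE 0.34, limma adjusted p = 0.00729). Leaving out day 3 replicate 2 (adjusted p = 0.0795) or replicate 3 (0.0652) ended this call, as did each of the 3 rescalings (adjusted p between 0.0529 and 0.0847). NADH dehydrogenase subunit 3 (TRINITY_DN34363_c3_g9), of the first complex, was at 75.2, 79.3 and 100.2 TPM and then at 30.5, 23.6 and 16.1 TPM (log2 fold change -1.85, SE 0.28, limma adjusted p = 0.00577; 0.0629 after quantile normalization).

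The other 8 flatworm-hit transcripts did not pass the test over all genes. NADH dehydrogenase subunit 2 (TRINITY_DN34363_c3_g7) had values of 6.16, 8.78 and 13.9 TPM at day 1 and 3.66, 1.66 and 0.84 TPM at day 3 (log2 fold change -1.84, SE 0.38, limma adjusted p = 0.0863). It passed in 1 of 25 alternatives, without day 3 replicate 1 (adjusted p = 0.0231). Its highest adjusted p was 0.314, without day 1 replicate 3. Cytochrome c oxidase subunit III (TRINITY_DN30709_c0_g2) had 18.6, 22.5 and 29.9 TPM and then 17.4, 5.78 and 7.94 TPM (log2 fold change -1.23). Cytochrome c oxidase subunit I (TRINITY_DN38996_c3_g1) had 23.6, 24.2 and 31.1 TPM and then 22.9, 7.89 and 13.6 TPM (log2 fold change -0.89, and -0.54 without day 3 replicate 2). Cytochrome b (TRINITY_DN38996_c3_g2), of the middle complex, had 6.30, 8.36 and 10.8 TPM and then 8.81, 1.42 and 3.54 TPM (log2 fold change -0.97; -1.49 without day 3 replicate 1 and -0.48 without day 3 replicate 2). In all 10 transcripts day 3 replicate 1 was the highest of its group, and the list's median was -1.55 without it, -0.87 without replicate 2 and -1.05 without replicate 3. NADH dehydrogenase subunits 1, 4 and 5 are covered by the range above, subunit 5 by 2 transcripts.

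A second set of 8 mitochondrially encoded transcripts had bovid hits, that is, in cattle and their relatives. In this set 0 were called and 8 were lower at an unadjusted p under 0.05, with log2 fold changes from -1.92 to -1.21 and a median of -1.42. The days overlapped in none of the 8, but no share of all tested genes without overlap stands beside this. Lower values were common in the whole class. Of all 51 tested bovid-hit genes, these 8 included, 23 were lower and 3 higher at an unadjusted p under 0.05, with a median of -0.75. Cytochrome c oxidase subunit I in TRINITY_DN37867_c0_g10 was at 272, 271 and 193 TPM at day 1 and at 167, 62.8 and 54.6 TPM at day 3 (log2 fold change -1.53, SE 0.57, limma adjusted p = 0.434). Subunit 3 of NADH dehydrogenase in TRINITY_DN41703_c0_g1 was at 107, 119 and 94.8 TPM and then at 59.6, 15.8 and 21.7 TPM (log2 fold change -1.92, SE 0.63, limma adjusted p = 0.353). Here too replicate 1 of day 3 was the highest of its group in all 8 transcripts. These 8 were measured in the same libraries and are not independent observations. Summed over the set, the level was 661, 651 and 491 TPM at day 1 and 389, 150 and 131 TPM at day 3, beside 351, 395 and 489 TPM and then 204, 90.6 and 97.1 TPM for the flatworm-hit set. The sums of both sets thus fall in separate ranges on the 2 days, and the part of bovid RNA in the flatworm-hit values was not tested. The remaining 22 tested transcripts of these subunits, with hits elsewhere, had 0 calls, 2 lower at an unadjusted p under 0.05 and a median of -0.03.

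**Figure D4:**
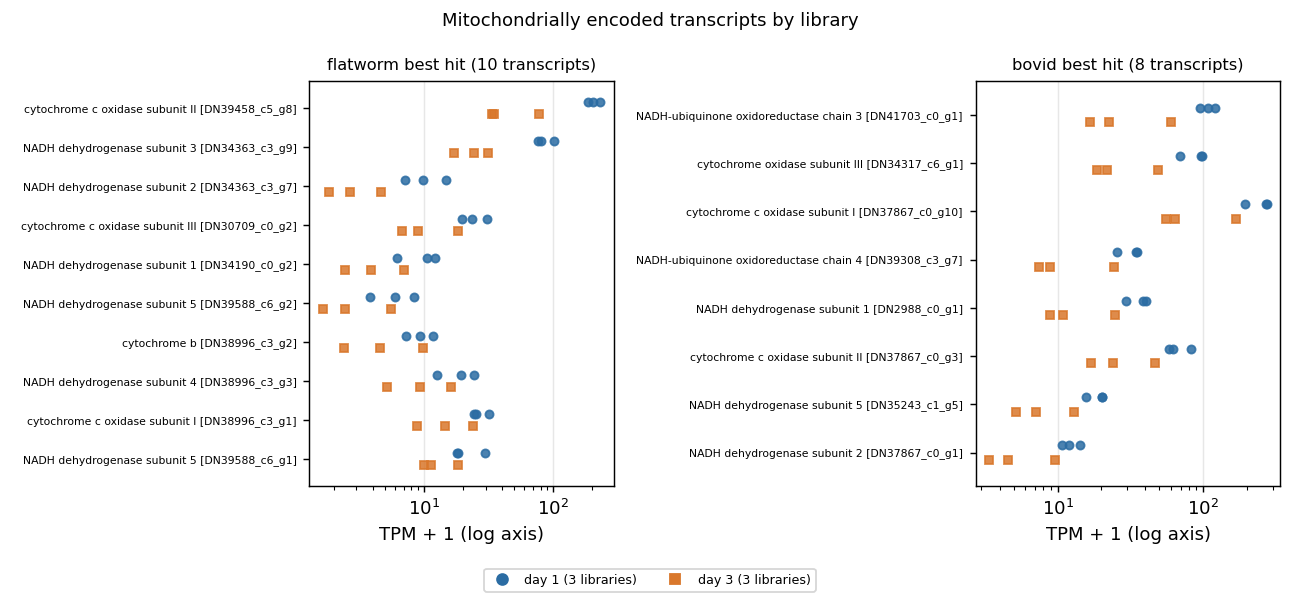
TPM + 1 on a log axis for the mitochondrially encoded transcripts with a flatworm hit (10) and with a bovid hit (8), with circles for the libraries of day 1 and squares for those of day 3. The squares lie to the left of the circles in all 8 bovid-hit rows and in 5 of the 10 flatworm-hit rows, and in the rest the highest square reaches the lowest circle or beyond.

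Nuclear-encoded subunits of the respiratory chain and ATP synthase differed less. Of 93 tested, 0 were called, 2 were higher and 13 lower at an unadjusted p under 0.05, and the median was -0.14 relative to all genes (-0.24 to -0.04 over leaving out each library). ATP synthase subunit 9, the ring subunit, in TRINITY_DN39308_c3_g11 was at 172, 201 and 178 TPM at day 1 and at 139, 104 and 128 TPM at day 3 (log2 fold change -0.57, SE 0.18, limma adjusted p = 0.328). The 94 genes of glycolysis and the citric acid cycle had 0 calls and a median of -0.03 relative to all genes.

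Further named falls concerned a hormone precursor, actin and a membrane protein. Secreted peptide prohormone 18 (TRINITY_DN28060_c0_g1), a flatworm-hit precursor of the kind that planarian neurons and gland cells process into signalling peptides, was at 33.7, 26.1 and 34.4 TPM at day 1 and at 14.0, 9.01 and 11.03 TPM at day 3. The days did not overlap (log2 fold change -1.40, SE 0.25, limma adjusted p = 0.0357), but leaving out day 3 replicate 2 (adjusted p = 0.149) or 3 (0.127) ended the call. So did leaving out any library of day 1 (0.0582 to 0.172) and each of the 3 rescalings (0.0950 to 0.113). It was the 1 call among 166 tested neuronal genes. Beta-actin (TRINITY_DN39543_c3_g3), the cytoskeletal filament protein, with hits in a shark-like fish and a frog, went from 63.7, 40.5 and 83.0 TPM to 11.7, 12.0 and 15.4 TPM, which are well separated (log2 fold change -2.13, SE 0.29, limma adjusted p = 0.00201; 0.0629 and 0.0744 after quantile normalization and median-ratio scaling). It was the 1 call among 79 muscle and contractile genes. A cell number regulator 10-like transcript (TRINITY_DN37880_c3_g2), named after a plant family of small membrane proteins and with its hit in a sponge, fell from 535, 543 and 416 TPM to 193, 259 and 222 TPM (log2 fold change -1.14, SE 0.20, limma adjusted p = 0.0290). This call was lost without day 1 replicate 1 or 2 or day 3 replicate 1 or 3 (adjusted p between 0.0957 and 0.162).

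The largest falls without a named hit were TRINITY_DN31410_c0_g1, TRINITY_DN39158_c2_g1 and TRINITY_DN36786_c0_g1. TRINITY_DN39158_c2_g1 (326 bases) was at 33.5, 29.7 and 18.1 TPM at day 1 and at 1.39, 2.04 and 1.73 TPM at day 3, after 122.6, 129.5 and 110.2 TPM in control (log2 fold change from day 1 to day 3 -3.33, SE 0.28, limma adjusted p = 2.20e-05). TRINITY_DN36786_c0_g1, whose hit in a water flea names no protein, went from 16.2, 21.0 and 11.9 TPM to 1.83, 0.27 and 1.52 TPM (log2 fold change -3.02, SE 0.36, limma adjusted p = 0.000703). TRINITY_DN31410_c0_g1 had the largest fall of all and a wide spread, from 48.0, 35.7 and 31.9 TPM to 6.99, 1.22 and 0.52 TPM (log2 fold change -3.70, SE 0.70, limma adjusted p = 0.0489). It was called neither without any library of day 1 (adjusted p 0.124 to 0.190) nor without day 3 replicates 2 or 3 (0.220 and 0.217) or day 5 replicates 1 or 2 (0.0516 and 0.0592).

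Rises that filled the set of named genes but did not pass the test included caspase-10, an initiator protease of cell death, and RPB2, a core subunit of RNA polymerase II. The caspase-10 transcript (TRINITY_DN35979_c1_g1) was at 18.4, 15.1 and 6.24 TPM at day 1 and at 29.4, 59.2 and 53.1 TPM at day 3 (log2 fold change 1.82, SE 0.42, limma adjusted p = 0.124), and at 15.9 ± 10.2 TPM at day 5 (SD, n = 3). Its days did not overlap. The RPB2 fragment (TRINITY_DN42524_c0_g1) had 10.4, 12.0 and 6.44 TPM and then 17.4, 53.2 and 37.5 TPM (log2 fold change 1.71, adjusted p = 0.0999; 0.0117 without day 3 replicate 1). A fragment of protein kinase A, the cyclic AMP-dependent kinase (TRINITY_DN32940_c1_g5, 201 bases), had 2.04, 1.62 and 1.49 TPM and then 8.77, 16.02 and 9.27 TPM (log2 fold change 2.14, adjusted p = 0.0863). This fragment passed the test in 3 of 24 alternatives: without control replicate 2 (adjusted p = 0.00330), and in fits of 6 or 9 libraries (0.00591 and 0.00699). Without day 3 replicate 2 its adjusted p was 0.299. The mitochondrial ABC transporter ABCB6 (TRINITY_DN42354_c0_g1) had 1.95, 2.59 and 0.56 TPM and then 6.43, 22.2 and 7.06 TPM (log2 fold change 2.13, adjusted p = 0.245, and 0.550 without day 3 replicate 2). Day 3 replicate 2 was the highest library in all 4.

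Transcripts named in an earlier description of these data for their difference from control include several described above and the following, which were not called between the days. The small heat shock transcripts, chaperones that hold unfolding proteins, were at 126, 118 and 120 TPM at day 1 and at 189, 361 and 153 TPM at day 3 for TRINITY_DN38028_c0_g1 (log2 fold change 0.84, SE 0.27, limma adjusted p = 0.328; 0.49 without day 3 replicate 2). Its days did not overlap, whereas TRINITY_DN38028_c0_g2 of the same assembly cluster, at 190, 169 and 188 TPM and then at 251, 424 and 182 TPM, did overlap (log2 fold change 0.56, 0.23 without day 3 replicate 2, adjusted p = 0.576). A cathepsin L with a ciliate hit (TRINITY_DN2937_c0_g1), a lysosomal protease, was at 7.95 ± 1.54 TPM at day 1 and 7.09 ± 2.82 TPM at day 3. A lifeguard-like protein of a family that inhibits cell death (TRINITY_DN35442_c1_g1) was at 5.88 ± 1.36 and 6.33 ± 1.88 TPM, and TRAF3, an adaptor of TNF receptor signalling (TRINITY_DN33177_c0_g2), at 33.3 ± 6.59 and 38.6 ± 20.4 TPM (SD, n = 3 each). A kinase whose annotation names unc-51, of the family that starts autophagy, and whose Swiss-Prot hit names a yeast cell division kinase (TRINITY_DN35609_c0_g1), was at 19.3 ± 6.30 and 26.03 ± 4.94 TPM. None of these 4 passed the test (limma adjusted p between 0.684 and 0.964), and in all 4 the days overlapped.

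Genes of the stem cell and germ granule list had 0 calls among 24 tested, and 0 were higher and 2 lower at an unadjusted p under 0.05. The list median was 0.05 relative to all genes (0.00 to 0.14 over leaving out each library). DjPiwiA (TRINITY_DN34216_c3_g2), an Argonaute protein and marker of neoblasts, was at 83.6, 101.1 and 78.6 TPM at day 1 and at 69.8, 137 and 73.9 TPM at day 3. There 2 of 3 libraries were below all of day 1 and replicate 2 above all (log2 fold change 0.03, SE 0.25, limma adjusted p = 0.980, and log2 fold change -0.28 without day 3 replicate 2). The vasa-like DjVLGA (TRINITY_DN35646_c1_g2), an RNA helicase, was at 46.6, 48.7 and 39.0 TPM and then at 25.8, 31.5 and 28.2 TPM without overlap (log2 fold change -0.63, SE 0.20, limma adjusted p = 0.313). A Tudor domain protein (TRINITY_DN33461_c0_g1), of a family that binds Piwi proteins, was at 19.3, 21.8 and 20.1 TPM and then at 16.5, 13.4 and 10.5 TPM, also without overlap (log2 fold change -0.59, limma adjusted p = 0.365). These were the 2 members of the list that were lower at an unadjusted p under 0.05. A further transcript annotated as DjVLGA (TRINITY_DN34297_c0_g1) was at 21.0, 28.0 and 17.6 TPM and then at 20.6, 32.5 and 17.1 TPM, and overlapped (log2 fold change 0.05, adjusted p = 0.969). The log2 fold change was 0.11 for DjPiwiC (TRINITY_DN35446_c2_g6), 0.01 for DjPiwiB (TRINITY_DN38791_c0_g1), 0.12 for VASA-2 (TRINITY_DN23256_c0_g1) and 0.28 for a tudor protein (TRINITY_DN34489_c4_g1), all overlapping between the days.

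Of 41 DNA replication and nucleotide synthesis genes, 0 were called, 0 were higher and 5 lower at an unadjusted p under 0.05, with a median of 0.00 relative to all genes and -0.12 without day 3 replicate 2. Those lower included 3 transcripts of ribonucleotide reductase, which makes deoxyribonucleotides. The largest difference among them was in TRINITY_DN33815_c0_g1, at 11.9, 13.6 and 11.1 TPM at day 1 and at 8.54, 7.36 and 5.27 TPM at day 3 (log2 fold change -0.73, SE 0.21, limma adjusted p = 0.276). Thymidylate synthase (TRINITY_DN34843_c2_g4) had 65.7, 87.4 and 61.7 TPM and then 46.0, 45.8 and 41.0 TPM (log2 fold change -0.67, adjusted p = 0.276). PCNA, the sliding clamp of DNA polymerase (TRINITY_DN29941_c0_g1), had 12.9, 10.8 and 10.8 TPM and then 7.33, 9.0 and 7.66 TPM (log2 fold change -0.47, adjusted p = 0.503). None of the 3 overlapped between the days. More abundant PCNA transcripts did overlap: TRINITY_DN28542_c0_g1 had 27.1, 29.9 and 18.9 TPM and then 23.9, 41.3 and 23.4 TPM (log2 fold change 0.19, adjusted p = 0.883). TRINITY_DN36658_c0_g1 had 71.7, 95.7 and 65.2 TPM and then 72.9, 48.5 and 68.6 TPM (log2 fold change -0.29, adjusted p = 0.828). The 68 cyclin, cyclin-dependent kinase and mitosis genes and the 30 DNA repair genes had 0 calls and medians of 0.03 and 0.02 relative to all genes.

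Cytosolic ribosomal proteins, the building blocks of the ribosome, had 0 calls among 337 tested, with 12 higher and 51 lower at an unadjusted p under 0.05 and a median of -0.12 relative to all genes (-0.29 to 0.01 over leaving out each library). Before that correction the list median was -0.10, and it was 0.06 when TPM was rescaled with the 2 most abundant transcripts removed. That rescaling moved the median of all genes to 0.15, and relative to it the list was at -0.09. Among the 44 with a flatworm hit, 34 had a log2 fold change below 0, and 17 were lower and 0 higher at an unadjusted p under 0.05. Over all flatworm-hit genes, 4.04% were lower and 1.8% higher at that threshold, while the share below 0 is not given here. The median of these 44 was -0.31, and -0.40 relative to all flatworm-hit genes. Ribosomal protein L32 (TRINITY_DN37455_c1_g6) was at 437, 407 and 334 TPM at day 1 and at 251, 244 and 263 TPM at day 3 (log2 fold change -0.63, SE 0.18, limma adjusted p = 0.279). Ribosomal protein S28 (TRINITY_DN7019_c0_g1) was at 1257, 1051 and 859 TPM and then at 744, 562 and 668 TPM (log2 fold change -0.67, limma adjusted p = 0.287). Neither overlapped between the days. In the opposite direction, an S12-like transcript with a plant hit (TRINITY_DN26206_c0_g1) was at 72.4, 69.1 and 65.1 TPM and then at 109.6, 141.5 and 118.6 TPM (log2 fold change 0.82, SE 0.18, limma adjusted p = 0.0889). It passed the test after quantile normalization (adjusted p = 0.00803), after rescaling with the 2 most abundant transcripts removed (0.0281) and with a filter of 5 TPM (0.0480). It did not pass under the other 21 of 24 alternatives, where the highest adjusted p was 0.264, without day 1 replicate 3. Proteasome subunits, which degrade tagged proteins, had 0 calls among 52 and a median of -0.14, and splicing factors 0 calls among 116 and a median of -0.02, both relative to all genes.

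MAP kinase, PI3K-TOR and insulin signalling genes had 0 calls among 207, with 16 higher and 1 lower at an unadjusted p under 0.05 and a median of 0.20 relative to all genes (0.13 without day 3 replicate 2). Over all tested genes 2.71% were higher and 5.95% lower at that threshold. The 54 flatworm-hit members of this list had 0 higher and 0 lower, with a median of 0.05 relative to all flatworm-hit genes. The ribosomal protein S6 kinase beta-1-like transcript (TRINITY_DN3084_c0_g1), an effector of TOR, was at 327, 297 and 207 TPM at day 1 and at 328, 569 and 373 TPM at day 3 (log2 fold change 0.59, SE 0.24, limma adjusted p = 0.472; 0.36 without day 3 replicate 2). Digestive enzymes had 0 calls among 147, with 13 higher and 1 lower at an unadjusted p under 0.05 and a median of 0.15 relative to all genes. Among them, 5 of 6 flatworm-hit trypsin-like serine proteases were higher at an unadjusted p under 0.05, with a median log2 fold change of 0.84, and 0.58 without day 3 replicate 2. Of these, TRINITY_DN37049_c0_g2 was at 390, 135 and 192 TPM and then at 439, 684 and 329 TPM, so the days overlapped (log2 fold change 1.09, SE 0.37, limma adjusted p = 0.361). Cathepsins and legumains had 0 calls among 30, 3 higher and 0 lower at an unadjusted p under 0.05. A cathepsin L1-like protease (TRINITY_DN34166_c8_g1) was at 311, 319 and 166 TPM and then at 454, 523 and 388 TPM (log2 fold change 0.83, adjusted p = 0.407; 0.52 without day 1 replicate 3). A cathepsin B (TRINITY_DN39563_c3_g9) was at 24.6, 43.4 and 29.1 TPM and then at 44.6, 72.8 and 40.5 TPM (log2 fold change 0.68, adjusted p = 0.434; 0.42 without day 3 replicate 2).

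Among cell death regulators and TNF receptor-associated factors, 0 of 154 were called, 10 were higher and 4 lower at an unadjusted p under 0.05. A caspase-3-like executioner protease (TRINITY_DN38362_c0_g1) was at 13.8, 14.3 and 9.38 TPM at day 1, at 25.6, 27.2 and 38.4 TPM at day 3 and at 7.91 ± 6.06 TPM at day 5 (SD, n = 3; log2 fold change from day 1 to day 3 1.22, SE 0.39, limma adjusted p = 0.330). A further transcript annotated as TRAF3, with a TRAF6 hit in Swiss-Prot (TRINITY_DN38564_c0_g1), was at 11.9, 9.13 and 6.82 TPM, then at 19.2, 20.0 and 17.8 TPM and at day 5 at 34.9 ± 2.84 TPM (log2 fold change from day 1 to day 3 0.99, SE 0.21, limma adjusted p = 0.0910; 0.0485 with a filter of 5 TPM). In both the days did not overlap. For TRINITY_DN38564_c0_g1 the filter of 5 TPM was the 1 of 24 alternatives that it passed. Its highest adjusted p by limma was 0.314, without day 1 replicate 3.

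Detoxification genes, the cytochrome P450 enzymes, conjugating enzymes and exporters, had 0 calls among 77, with 6 higher and 0 lower at an unadjusted p under 0.05. Over all tested genes 2.71% were higher and 5.95% lower. NADPH-cytochrome P450 reductase (TRINITY_DN37064_c2_g5), which passes electrons to P450 enzymes, was at 17.6, 20.2 and 14.5 TPM at day 1 and at 24.0, 45.4 and 25.6 TPM at day 3 without overlap (log2 fold change 0.78, SE 0.25, limma adjusted p = 0.341; 0.50 without day 3 replicate 2). The antioxidant and glutathione list had 3 calls among 114, all rises and all among the plant-hit transcripts described above, and a median of -0.11 relative to all genes. Its 20 flatworm-hit members had 0 calls, 0 higher and 5 lower at an unadjusted p under 0.05. The HSP70, HSP90, DnaJ and chaperonin list had 0 calls among 97 with a median of 0.15, and folding factors of the endoplasmic reticulum 0 calls among 22 with a median of 0.15, both relative to all genes. A protein disulfide isomerase A3-like transcript (TRINITY_DN32443_c1_g3), which forms disulfide bonds, was at 55.6, 72.5 and 56.5 TPM and then at 77.5, 140.6 and 84.7 TPM (log2 fold change 0.66, adjusted p = 0.392; 0.40 without day 3 replicate 2). The 11 small heat shock genes had 0 calls and a median of 0.08, and the 67 autophagy and lysosome genes 0 calls and 0.09, both relative to all genes.

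Glyphosate acts on the shikimate pathway in plants, and 3 animal enzymes of aromatic amino acid metabolism were tested, of which 0 were called. Tryptophan 2,3-dioxygenase (TRINITY_DN30607_c0_g1), which opens the tryptophan ring, was at 4.57, 4.01 and 2.19 TPM at day 1 and at 4.22, 8.30 and 7.23 TPM at day 3, and these overlapped (log2 fold change 0.72, SE 0.27, limma adjusted p = 0.434; 0.48 without day 1 replicate 3). Solute carriers and other transporters had 0 calls among 380, with 14 higher and 3 lower at an unadjusted p under 0.05 and a median of 0.11 relative to all genes. The slc42a-1 transcript (TRINITY_DN35966_c1_g1) was named after the Rh family that carries ammonium, although its Swiss-Prot hit names a kinase. It was at 2.15, 3.06 and 1.17 TPM and then at 5.48, 9.05 and 4.04 TPM without overlap (log2 fold change 1.19, SE 0.34, limma adjusted p = 0.264).

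Lists for tissues and remaining functions had medians close to that of all genes. Relative to it, the median was 0.15 for 79 muscle and contractile genes and for 106 ion channels and pumps, 0.14 for 54 genes of Wnt, BMP, Hedgehog, FGF and Notch signalling, and 0.10 for each of 121 matrix and adhesion genes, 223 transcription factors and 283 ubiquitin genes. It was 0.11 for 141 translation factors and tRNA synthetases, 0.06 for 95 genes of cilia, 0.04 for 42 tubulins and 166 neuronal genes, and 0.03 for 213 genes of lipid metabolism and 271 transposon-like genes. Some medians were nearer that of flatworm-hit genes when only flatworm-hit members were taken. Relative to all flatworm-hit genes they were 0.10 for muscle, 0.06 for ion channels and pumps, 0.08 for the signalling genes and -0.04 for ubiquitin genes. Some lists described above lay farther away on this measure. They were at -0.17 for glycolysis and the citric acid cycle, -0.21 for nuclear respiratory subunits and -0.27 for antioxidant genes. Digestive enzymes were at 0.22, and autophagy and lysosome genes at 0.20. Of 55 flatworm-hit matrix and adhesion genes, 7 were lower and 0 higher at an unadjusted p under 0.05, against 4.04% and 1.8%. Apart from the actin, prohormone, E1 and tRNA synthetase transcripts named above, 0 members of these lists were called by limma, and at an unadjusted p under 0.05 each list had between 0 and 9 members higher and between 0 and 11 lower.

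**Figure D5:**
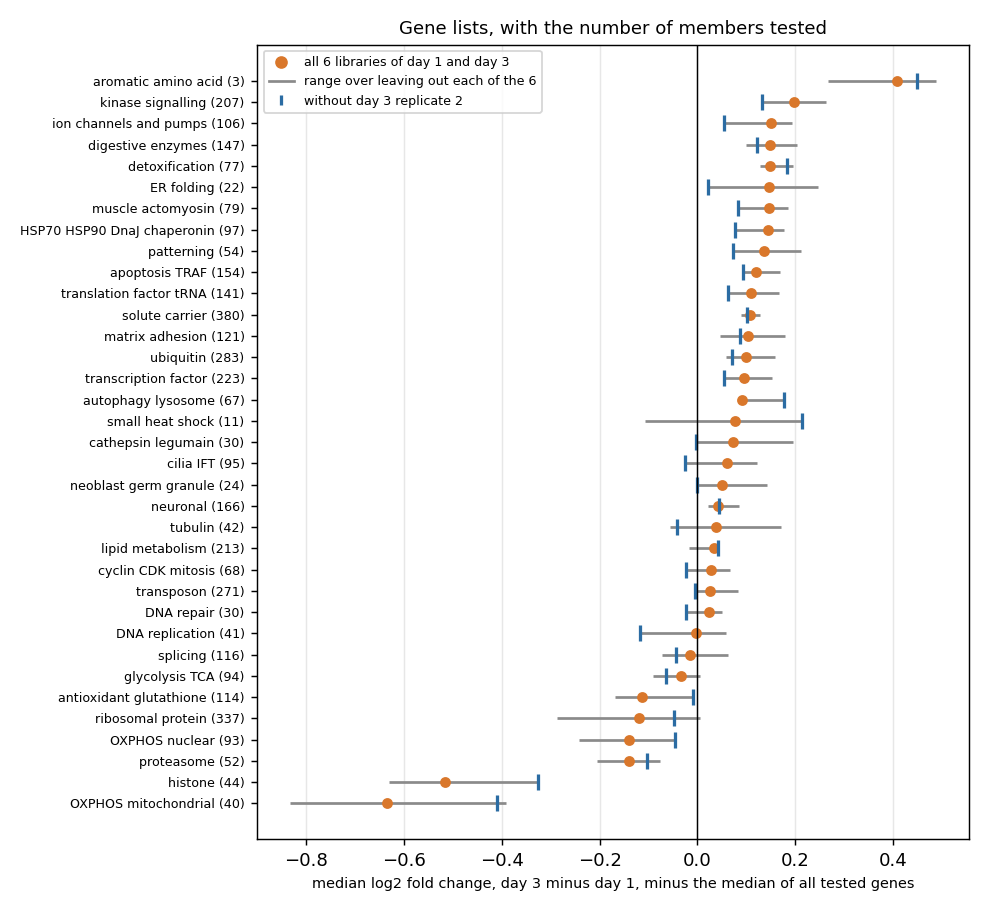
Median log2 fold change (TPM + 1), day 3 minus day 1, of each gene list after subtraction of the median of all tested genes, with the number of members tested in brackets, a grey line for the range over leaving out each of the 6 libraries, and a blue tick for the value without day 3 replicate 2. Mitochondrially encoded transcripts (-0.64) and histones (-0.52) lie farthest below 0, and all lists of more than 3 members on the other side lie at 0.20 or below.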

How the data were processed

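Polyadenylated RNA of whole worms was measured in 12 libraries, which the labels assign to groups and number as replicates. The submitters' processing notes name the tools FastQC, cutadapt, edgeR and Salmon, without version or setting (not given in the sources used here). What the authors deposited is a table of TPM as far as its values show: the header names no unit, each library sums to between 978610 and 986584, and each of the 30535 genes reaches 2.01 TPM or more in some library. TPM keeps no depth, so no counting interval is given. Of its per-sample columns, 0 were left unused.

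The 27329 genes that reached 1 TPM in 3 or more libraries entered, on the log2(TPM + 1) scale, a model in limma 3.58.1 (R 4.3.3) with an intensity trend, 12 libraries in 1 fit of 4 groups, contrast day 3 minus day 1, Benjamini-Hochberg adjustment over all tested genes. The procedure was tried on simulated data with independent normal noise, no outlying library and changes planted only in genes above a minimum level. The outcome is not given here. Such a simulation does not bear on low genes or on calls that rest on a single library. Shares of TPM were compared with exact permutation tests (SciPy 1.17.1), adjusted over 8 shares. Replicate numbers were not used as pairs: same-numbered libraries of day 1 and day 3 had deviations correlated at -0.07, 0.10 and -0.05.

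The comparison, the 35 gene lists (patterns on annotation text) and the classes of best hit were chosen with earlier results of these data known. After the table was seen, the patterns of the small heat shock, HSP70 and transporter lists were respelled, strays were removed from the histone and aromatic amino acid lists, mitochondrially encoded genes were kept out of the nuclear respiratory list, and green algae were kept out of the plant class. The small heat shock list still holds an HSP70 relative, and the digestive list a few trypsin inhibitors. Lists got no set test. Named genes were the 8 largest rises and 8 largest falls with a named hit, groups that do not overlap and a mean of at least 5 TPM, filled up with genes at an unadjusted p under 0.01; the 3 largest of each direction without one; the largest called rise and fall of each list; and genes named in the earlier description. Other genes named as members of a list were chosen after their values were seen. Alternatives were 3 rescalings, filters, a pseudocount of 0.1, no trend, a fold minimum, 6 or 9 libraries, flatworm-hit genes only, a replicate block, leaving out each library and, added after seeing the data, leaving out control replicate 1 with day 3 replicate 2.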

Additional observations from a re-analysis of the deposited data

How the results depend on the processing

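Of the 49 called genes, 11 were called under every alternative that tested them (at most 25 per gene), 38 lost the call under at least 1, and 0 changed sign. The count of called genes was 49 and stayed between 36 and 53 under 3 rescalings, other filters, a pseudocount of 0.1, no intensity trend and fits of 6 or 9 libraries. A fold minimum of 1 on the log2 scale could not alter it, since the smallest called change was 1.14. Without day 3 replicate 2 and control replicate 1 it was 42. Leaving out each library gave 37 to 78 called, 7 to 18 higher and 26 to 60 lower. A fit of flatworm-hit genes alone called 4 genes, 1 higher and 3 lower; it tested fewer genes. With the replicate block, 52 genes were called in 12 libraries, and 19 in the 6 libraries, 4 higher and 15 lower. The cause of the lower count in the 6 libraries was not tested. Deviations of day 1 replicate 1 correlated most with those of day 3 replicate 3 (0.13). Correlations this small cannot settle whether the replicate numbers pair the samples. Quantile normalization called 18 higher and 32 lower.

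Named genes that changed sign were all near 0 and uncalled. DjPiwiA ranged from -0.28 to 0.21 over leaving out libraries of these days (-0.28 also without both libraries above) and was -0.0068 with median-ratio scaling. TRAF3 in TRINITY_DN33177_c0_g2 ranged from -0.28 to 0.32 (-0.28 without both), the lifeguard-like transcript from -0.071 to 0.31 (-0.029 without both libraries), and the cathepsin L in TRINITY_DN2937_c0_g1 from -0.45 to 0.039. Shares of TPM changed sign for flatworm hits (2.12 percentage points against -0.63), ciliate hits (0.00306 against -0.00975) and plant hits (0.0786 against -0.0263) when the 2 most abundant transcripts were left out of the total, and the ciliate share ranged from -0.0272 to 0.00577 over leaving out each library. Of 350 list medians under alternatives 87 moved by more than the spread between libraries, and of 350 counts of called list members 32 moved. TPM keeps no depth, so which low genes could not be called for want of reads is unknown.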

Other observations

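Among the 37 falls, 16 shared an order within day 1: replicate 3 was highest and replicate 2 lowest. This order was noticed after the values were seen. The share of all tested genes with this order is not given here, so whether 16 of 37 is unusual is unknown. Of the 16, 14 had no hit, and the others were the beta-actin and the secreted peptide prohormone 18 transcripts. The largest fall among them was that of TRINITY_DN38893_c1_g2 (635 bases, no hit), at 130, 93.5 and 184 TPM at day 1, 18.0, 13.7 and 15.4 TPM at day 3 and 17.4, 18.4 and 17.1 TPM at day 5 (log2 fold change from day 1 to day 3 -2.99, SE 0.25, limma adjusted p = 2.20e-05). TRINITY_DN39069_c1_g1 (418 bases, no hit) was the most abundant of them, at 200.04, 137 and 269 TPM at day 1 and 51.3, 40.9 and 48.0 TPM at day 3 (log2 fold change -2.04, SE 0.25, limma adjusted p = 0.000892). TRINITY_DN39458_c5_g5 (219 bases, no hit) has the assembly cluster name of the cytochrome c oxidase subunit II transcript, and was at 63.1, 39.5 and 78.2 TPM and then at 11.2, 9.49 and 17.2 TPM, whereas subunit II itself was not lowest in replicate 2 of day 1.

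Further called transcripts had no hit. TRINITY_DN29623_c0_g1 (877 bases) was at 0.02, 0.00 and 0.00 TPM at day 1 and at 1.96, 3.39 and 3.6 TPM at day 3 (log2 fold change 1.96, SE 0.30, limma adjusted p = 0.00722; 0.0840 without day 3 replicate 3). TRINITY_DN17603_c0_g1 and TRINITY_DN32698_c2_g1 were listed at 0 in all 3 libraries of day 3, after 3.67, 2.33 and 4.5 TPM and 2.34, 3.78 and 3.28 TPM at day 1, with adjusted p of 0.0357 and 0.0403 by limma. Leaving out any of the 6 libraries ended either call (adjusted p between 0.0603 and 0.216), as did control replicate 3 for the former and day 5 replicate 2 or 3 for the latter. TRINITY_DN14832_c0_g1 was at 14.7 ± 3.87 TPM at day 1, 3.69 ± 1.11 TPM at day 3 and 0.607 ± 0.381 TPM at day 5 (SD, n = 3 each; log2 fold change from day 1 to day 3 -1.74, SE 0.27, limma adjusted p = 0.00877; 0.0900, 0.0513 and 0.0684 without day 1 replicate 1, day 1 replicate 2 and day 3 replicate 3).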
